A study of Homo sapiens with 8 samples.

Results

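Transcript levels of 41 listed genes of glycolysis and of the cellular response to low oxygen were examined in SHSY5Y cells, a human neuroblastoma line of neural crest origin. A gene was analysed where a row of the array was annotated to its symbol alone, which left 36 genes out of 18377 genes with such a row. Each of the 36 had a single row. SLC16A1, SLC16A3, CA9 and MXD1P1 matched no row of their own and were not analysed here. PGAM1, which moves the phosphate of phosphoglycerate, shared its 5 rows with PGAM4, so these rows cannot be given to either gene. Their differences between groups ran from -0.29 to 0.16 on the log2 scale and none passed the test described next.

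Total RNA of 8 cultures was hybridised to 8 Human Gene 1.0 ST arrays, 2 arrays in each of 4 groups. The lines are called PLKO and V71 after the sample titles. Both were stable lines made by viral delivery of a vector, kept under puromycin and grown on laminin. Non-differentiated cultures (NDF) stayed in growth medium with serum and added pyruvate. Differentiated cultures (DF) received 10 µM retinoic acid for 5 days while still in serum, and were then held for 3 days without serum in the presence of 2 nM BDNF. The treatment label gives the shRNA to PLKO and calls V71 the control. The methods of the study instead name pLKO.1 as the empty control vector, and the shRNA identifier given there ends in the digits of V71. Read by the methods and titles, PLKO would be the control line and V71 the knockdown line. The targeted gene was not analysed here, so the arrays were not used to settle which line carried the shRNA, and every difference between lines is V71 minus PLKO. Whether a line was a clone or a pool is not stated, and with 1 line of each kind a line and its shRNA cannot be told apart. No culture was labelled as kept in low oxygen. The study asked how an shRNA knockdown altered gene expression before and after neuronal differentiation.

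Glycolysis splits glucose into pyruvate, and cells can then turn pyruvate into lactate or pass it to mitochondria. When oxygen is present, prolyl hydroxylases of the EGLN family mark the alpha subunits of hypoxia-inducible factor (HIF), and the VHL complex sends them to degradation. When oxygen falls the alpha subunits persist, pair with ARNT and bind short DNA elements beside many genes, glycolytic enzymes and glucose transporters among them. The amount of HIF1A protein is set largely by this degradation, so a HIF1A transcript level does not report HIF activity. In sympathetic neuroblasts and neuroblastoma, EPAS1, the other main alpha subunit, is known as a regulator in its own right.

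All values are deposited log2 values made by robust multi-array averaging (RMA), in which a step of 1 is a doubling. Levels were compared between groups for the same gene, and no gene's level was set against that of another. Differences were tested with limma across all 28869 rows, with Benjamini-Hochberg adjustment over all rows. A difference was called when its adjusted p was under 0.05 and its size at least 1.5-fold. Arrays of a group correlated at a Spearman rho of 0.9947 or more, and arrays of different groups at 0.9931 or less. The median residual SD over all rows was 0.0996. The study calls the arrays of a group biological repeats, the labels do not say how the cultures were made, and p-values measure only the spread between these arrays. In whole cultures, fewer cells of a type and less RNA per cell cannot be told apart.

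Markers of the labelled cell were present. Of 23 noradrenergic neuroblast markers, 21 were analysed, and their mean level lay between 7.24 and 7.76 over the 8 arrays. HAND2, a sympathetic neuroblast factor, read 8.22 to 8.88. Of the Schwann cell and glia list, 10 of 14 markers were analysed and their mean level was 4.09 to 4.37. S100B, a defining glial gene, read 3.81 to 4.37 and SOX10, a neural crest and Schwann cell factor, read 4.50 to 4.73. Neither list was uniform. Of the neuroblast markers TH read 4.21 to 4.60, INSM1 4.42 to 4.84 and SLC18A2 2.78 to 3.82. L1CAM of the glia list read 7.07 to 8.95. Levels of different genes were not tested against each other, so these values describe the markers and do not identify the cell. The lower quartile of the arrays was 3.0 to 3.06, and of the analysed members only SLC2A3, a neuronal glucose transporter, lay under it in all 4 groups, at 2.55 to 2.76.

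Over the 36 members, 13 were called in at least 1 of the 4 comparisons of groups and 23 in none. In 17 members every difference was under 0.3 in size. HK2, PFKP, LDHA, LDHB, EPAS1, EGLN3, ADM and NDRG1, 8 genes, spanned at least 1 log2 unit over the 8 arrays. The plot of array values by gene shows the 13 called members.

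**Figure D1:**
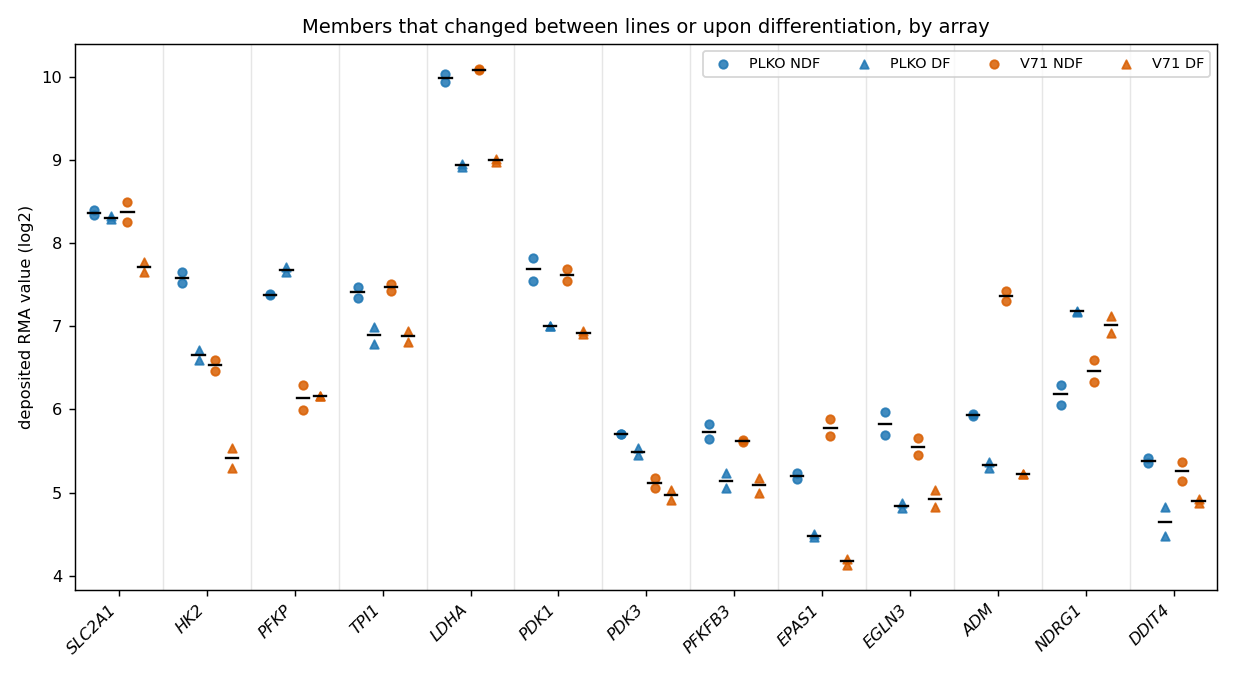
Deposited RMA values (log2, y axis) of the 13 members called in at least 1 comparison of groups. Points are single arrays (circles NDF, triangles DF, blue PLKO, orange V71) and black lines are means of the 2 arrays of a group. HK2 and PFKP sit lower in V71 than in PLKO in both conditions, and LDHA falls from about 10 in NDF to about 9 in DF in both lines.

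The first question was how the lines differed in the enzymes that trap and commit glucose. HK2 and PFKP were lower in V71 than in PLKO, before and after differentiation. HK2 is the inducible, mitochondria-bound hexokinase that phosphorylates incoming glucose. In NDF its values were 7.65 and 7.52 in PLKO and 6.59 and 6.46 in V71. In DF they were 6.59 and 6.71 in PLKO and 5.53 and 5.29 in V71. The V71 arrays lay below the PLKO arrays of the same condition with no overlap, and PLKO arrays in DF read close to V71 arrays in NDF. HK2 differed by -1.06 (SE 0.11, adjusted p = 0.000599) in NDF, which is 2.08-fold lower in V71. In DF it differed by -1.24 (SE 0.11, adjusted p = 0.000199), which is 2.36-fold lower.

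PFKP is the platelet isoform of phosphofructokinase, which commits sugar to glycolysis. Its values in NDF were 7.38 and 7.39 in PLKO and 5.99 and 6.30 in V71. In DF it read 7.66 and 7.71 in PLKO and 6.16 and 6.16 in V71. The lines were well apart in both conditions. The difference was -1.24 (SE 0.11, adjusted p = 0.00019) in NDF. In DF it was -1.52 (SE 0.11, adjusted p = 5.08e-05), a 2.88-fold lower level in V71 and the largest difference between lines among the members. The interaction, which is the DF minus NDF change in V71 minus that in PLKO, was -0.28 for PFKP (adjusted p = 0.647) and -0.18 for HK2 (adjusted p = 0.815), so no difference between conditions in the gap of the lines was detected for either gene. Without variance moderation the NDF calls of HK2 and PFKP were lost (adjusted p = 0.0826 and 0.0604). HK2, PFKP and ADM also appear in the study's own lists of altered genes, which were drawn from these arrays, so their difference is not independent of the study. In those lists of knockdown against control, ADM in NDF and PFKP in DF carry the sign that V71 minus PLKO has here, whereas HK2 in DF carries the opposite sign. The study also describes EGFR, PDGFRA and TNC as reduced by the knockdown in NDF, and here each was called lower in V71 in NDF. None of these genes was used to assign the shRNA to a line.

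None of the isoforms beside HK2 and PFKP was called between the lines. HK1, the constitutive brain hexokinase, differed by -0.25 (adjusted p = 0.256) in NDF and by -0.34 (adjusted p = 0.0733) in DF, with V71 below PLKO on every array of each condition. Its 95% intervals, not adjusted for the number of rows, were -0.46 to -0.05 in NDF and -0.54 to -0.13 in DF. PFKL and PFKM, the liver and muscle isoforms of phosphofructokinase, differed by -0.05 and -0.07 in NDF and by 0.08 and 0.08 in DF. The 95% intervals of these 4 differences lay between -0.30 and 0.32. GPI, ALDOA, ALDOC and TPI1, which carry hexose phosphates to the triose stage, differed by between -0.01 and 0.11 in either condition. In the lower part of glycolysis, GAPDH, PGK1, ENO1, ENO2 and PKM differed by 0.02 to 0.28, and none was called. Near copies of several of these genes exist in the genome, ALDOA, TPI1, GAPDH, PGK1, ENO1 and LDHA among them, and their rows can pick up transcripts of such copies.

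Transcripts of genes for glucose uptake and the fate of pyruvate differed less between the lines. SLC2A1 (GLUT1), the main glucose transporter of dividing cells, read 8.34 and 8.40 in PLKO and 8.26 and 8.50 in V71 in NDF. In DF it read 8.29 and 8.33 in PLKO and 7.65 and 7.77 in V71. The lines overlapped before differentiation and were apart after it. The difference was 0.01 (adjusted p = 0.983) in NDF and -0.60 (SE 0.10, adjusted p = 0.00811) in DF. The DF call was lost without PLKO DF replicate 2, when the size fell just below 1.5-fold (adjusted p = 0.0449), and without V71 DF replicate 1 (adjusted p = 0.0737).

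PDK3, a kinase that turns pyruvate dehydrogenase off, read 5.70 and 5.70 in PLKO and 5.05 and 5.17 in V71 in NDF. In DF it read 5.54 and 5.45 in PLKO and 4.91 and 5.03 in V71. All 4 V71 arrays were below all 4 PLKO arrays. The difference was -0.59 (SE 0.09, adjusted p = 0.00671) in NDF and -0.52 (adjusted p = 0.00916, 1.44-fold and so short of the fold limit) in DF. The NDF call was lost when PLKO NDF replicate 2 was left out (adjusted p = 0.0717), as it was on leaving out PLKO NDF replicate 3 (0.0754) and on leaving out V71 NDF replicate 2 (0.0643). It was also lost after a second quantile normalization and after median centring, both of which took EPAS1 past the fold limit in NDF.

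LDHB, the heart-type lactate dehydrogenase subunit, ran the other way. It read 10.39 and 10.48 in PLKO NDF, 10.97 and 10.81 in V71 NDF, 9.91 and 10.04 in PLKO DF, and 10.48 and 10.47 in V71 DF. Within each condition V71 was above PLKO on every array. The difference of 0.45 (adjusted p = 0.0363) in NDF and 0.50 (adjusted p = 0.0148) in DF passed the adjusted p but not the fold limit. LDHA, the muscle-type subunit, differed by 0.10 in NDF and 0.05 in DF, and neither passed (adjusted p = 0.716 and 0.835). PDK1, PFKFB3 and PFKFB4, a further pyruvate dehydrogenase kinase and 2 enzymes that set the activator of phosphofructokinase, differed by between -0.11 and 0.23 and none was called.

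**Figure D2:**
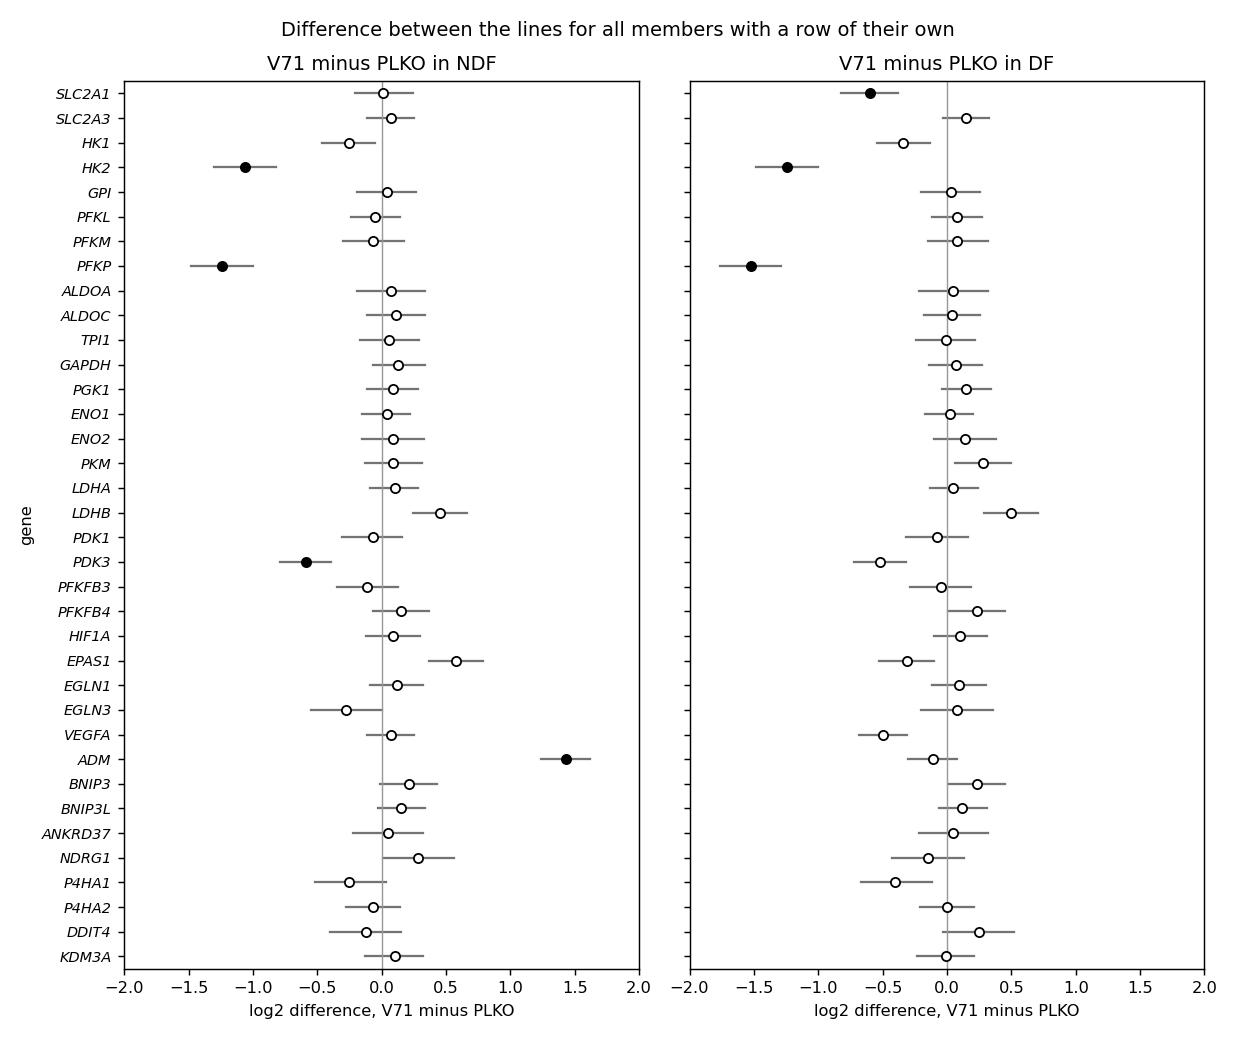
Log2 difference V71 minus PLKO (x axis) for each of the 36 members (y axis, ordered by role) in NDF (left) and DF (right). Points are limma estimates, filled where called, and bars are 95% intervals. HK2 and PFKP are called lower in V71 in both panels, ADM is called higher in NDF alone, and most other genes lie near 0.

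Among genes of the oxygen response, ADM stood out in NDF. ADM encodes adrenomedullin, a secreted vasodilator peptide induced by HIF. Its NDF values were 5.94 and 5.92 in PLKO and 7.30 and 7.42 in V71, and its DF values were 5.37 and 5.29 in PLKO and 5.22 and 5.22 in V71. The V71 NDF arrays were far above the other 6 arrays. The line difference was 1.43 (SE 0.08, adjusted p = 2.22e-05) in NDF, which is 2.69-fold higher in V71, and -0.11 (adjusted p = 0.617) in DF.

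EPAS1 (HIF2A) read 5.16 and 5.24 in PLKO NDF, 5.68 and 5.88 in V71 NDF, 4.50 and 4.46 in PLKO DF, and 4.20 and 4.13 in V71 DF. V71 was above PLKO before differentiation and below it afterwards, with no overlap. The difference was 0.58 (adjusted p = 0.0109) in NDF, 1.49-fold and just short of the fold limit, and -0.31 (adjusted p = 0.107) in DF. HIF1A, the alpha subunit of the classical response, read 9.34 to 9.63 over all 8 arrays. Its line difference was 0.09 (95% interval -0.12 to 0.30) in NDF and 0.10 (-0.10 to 0.31) in DF.

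VEGFA, the vascular growth factor, read 6.82 and 6.85 in PLKO NDF, 6.93 and 6.87 in V71 NDF, 6.83 and 6.81 in PLKO DF, and 6.28 and 6.37 in V71 DF. The V71 DF arrays were the lowest of the 8. In DF the difference was -0.50 (adjusted p = 0.00749), 1.41-fold and under the fold limit. The other oxygen-response members, EGLN1, EGLN3, BNIP3, BNIP3L, ANKRD37, NDRG1, P4HA1, P4HA2, DDIT4 and KDM3A, which include oxygen-sensing hydroxylases, mitophagy receptors, collagen hydroxylases and a histone demethylase, differed by -0.28 to 0.28 in NDF and by -0.40 to 0.25 in DF, and none was called.

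In counts, 1 of 36 members was called higher in V71 in NDF, against 0.615% of all genes, and 3 lower, against 1.54% of all genes. In DF none was called higher, against 1.81% of all genes, and 3 lower, against 1.26%. At an unadjusted p under 0.05 by limma, 4 members were higher in V71 in DF, against 1928 of 18377 genes. At that limit 8 members were lower, against 1648 genes. The median difference of the members was 0.07 in NDF and 0.04 in DF, beside 0.01 for all genes in both conditions. So the lines differed in single members in both directions, with the median member close to the median gene. HK2 and PFKP were called in both conditions.

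Some markers of another cell state differed between the lines. SHSY5Y cultures can hold substrate-adherent, mesenchymal (S-type) cells. In V71 9 of 32 S-type markers (28.1%) were called lower in NDF, against 1.54% of all genes. In DF 4 of 32 (12.5%) were called lower, against 1.26%. None was called higher in either condition. The median difference of the list was -0.10 in NDF, with 10 markers above 0 and 22 below. In DF it was -0.03, with 14 above 0 and 18 below. The mean level of the list was 4.93 to 4.94 in PLKO NDF, 4.43 to 4.52 in V71 NDF, 4.65 to 4.70 in PLKO DF and 4.37 to 4.49 in V71 DF. VIM, a defining marker, read 4.77 and 5.12 in PLKO NDF and 2.80 to 3.25 on the other 6 arrays. SPARC, of the same list, ran the other way in NDF, at 6.6 and 6.47 in PLKO and 6.98 and 7.16 in V71. Of the 32 markers, 5, 6, 4 and 8 lay below the lower quartile in these groups in that order, CAV1 among them in every group. Their part in the HK2, PFKP and ADM differences was not tested.

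The next question was how differentiation changed the same genes, in comparisons that use the same 8 arrays as those between the lines. LDHA, HK2 and several HIF-linked genes fell in both lines. The other hexokinase, HK1, did not fall and differed by 0.25 (adjusted p = 0.115) in PLKO and by 0.17 (adjusted p = 0.313) in V71. LDHA, which makes lactate from pyruvate, read 9.94 and 10.04 in PLKO NDF and 8.96 and 8.92 in PLKO DF. In V71 it read 10.08 and 10.10 in NDF and 9.01 and 8.98 in DF. The conditions were apart by about 1 log2 unit in each line. LDHA fell by 1.05 (SE 0.08, adjusted p = 2.74e-05) in PLKO and fell by 1.09 (SE 0.08, adjusted p = 2.6e-05) in V71.

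HK2, with the array values given above, fell by 0.94 (SE 0.11, adjusted p = 0.000324) in PLKO and fell by 1.11 (SE 0.11, adjusted p = 0.000124) in V71. PDK1, a HIF-induced kinase that turns pyruvate dehydrogenase off, read 7.55 and 7.82 in PLKO NDF and 7.0 and 7.01 in PLKO DF. In V71 it read 7.69 and 7.54 in NDF and 6.91 and 6.94 in DF. The NDF arrays of both lines were above all DF arrays. PDK1 fell by 0.68 (SE 0.10, adjusted p = 0.00217) in PLKO and fell by 0.69 (SE 0.10, adjusted p = 0.0019) in V71. Without PLKO NDF replicate 3 the PLKO call was lost, at -0.55 and an adjusted p of 0.0263.

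EGLN3, the prolyl hydroxylase that HIF itself induces, read 5.97 and 5.69 in PLKO NDF, 4.88 and 4.81 in PLKO DF, 5.66 and 5.45 in V71 NDF, and 4.82 and 5.03 in V71 DF. No DF array reached an NDF array. EGLN3 fell by 0.99 (SE 0.12, adjusted p = 0.000561) in PLKO and fell by 0.63 (SE 0.12, adjusted p = 0.00802) in V71. The V71 call was lost without V71 NDF replicate 2 (adjusted p = 0.0669) and without V71 DF replicate 1 (adjusted p = 0.0662). EPAS1 fell by 0.72 (SE 0.09, adjusted p = 0.000798) in PLKO and fell by 1.61 (SE 0.09, adjusted p = 6.47e-06) in V71. ADM fell by 0.61 (SE 0.08, adjusted p = 0.00118) in PLKO and fell by 2.14 (SE 0.08, adjusted p = 6.31e-07) in V71, the largest change of any member. Without PLKO DF replicate 2 the PLKO change in ADM dropped under the fold limit (adjusted p = 0.0106).

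LDHA, HK2, PDK1, ADM, EPAS1 and EGLN3 were the 6 members called in both lines upon differentiation. Promoter sequence was read for them, because HIF binds short elements with the core ACGTG or GCGTG. The windows are the 250 bases upstream of a RefSeq transcript start (GRCh38.p14), and for each gene the window with the most stretches of core letters is shown, with the core in capitals on whichever strand it lies, so that CACGT and CACGC are the cores of the other strand. EGLN3 had no core in its window. All windows lie on the plus strand of their chromosome, in the direction of transcription, at chr11:18394313-18394562 for LDHA, chr2:74834920-74835169 for HK2, chr2:172555840-172556089 for PDK1, chr11:10304823-10305072 for ADM and chr2:46297157-46297406 for EPAS1.
LDHA: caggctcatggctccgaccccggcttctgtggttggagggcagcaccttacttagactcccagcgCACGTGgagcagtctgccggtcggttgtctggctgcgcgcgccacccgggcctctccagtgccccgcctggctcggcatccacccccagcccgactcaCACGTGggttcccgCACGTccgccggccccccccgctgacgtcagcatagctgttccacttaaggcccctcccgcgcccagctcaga
HK2: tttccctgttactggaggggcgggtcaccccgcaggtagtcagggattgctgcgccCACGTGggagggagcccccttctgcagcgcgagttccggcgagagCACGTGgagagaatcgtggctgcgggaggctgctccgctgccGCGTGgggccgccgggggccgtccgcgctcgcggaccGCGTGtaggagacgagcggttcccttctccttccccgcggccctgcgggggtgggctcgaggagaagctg
PDK1: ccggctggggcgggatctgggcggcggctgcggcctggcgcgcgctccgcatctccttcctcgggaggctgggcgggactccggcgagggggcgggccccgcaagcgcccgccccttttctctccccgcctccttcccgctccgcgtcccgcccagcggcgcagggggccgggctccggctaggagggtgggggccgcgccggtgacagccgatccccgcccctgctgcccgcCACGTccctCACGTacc
ADM: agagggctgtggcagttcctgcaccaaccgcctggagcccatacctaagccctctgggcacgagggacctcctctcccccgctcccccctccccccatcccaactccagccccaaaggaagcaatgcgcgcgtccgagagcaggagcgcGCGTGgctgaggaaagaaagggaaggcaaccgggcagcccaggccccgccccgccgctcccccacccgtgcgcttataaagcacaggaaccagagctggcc
EPAS1: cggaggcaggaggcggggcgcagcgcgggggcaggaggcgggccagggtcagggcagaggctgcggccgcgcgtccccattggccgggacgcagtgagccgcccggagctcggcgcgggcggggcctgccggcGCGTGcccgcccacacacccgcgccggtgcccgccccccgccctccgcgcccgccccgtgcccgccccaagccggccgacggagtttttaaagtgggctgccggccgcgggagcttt

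The LDHA window held 3 stretches and the HK2 window 4, and each had 2 copies of CACGTG, the E-box that MYC and related factors also bind and in which the core matches on both strands. PDK1 held 2 stretches, and ADM and EPAS1 held 1 each. A core was found in 27 of the 32 analysed members with a window (84.4%), against 47.4% of all genes with a window. It was found in 34 of their 56 windows (60.7%), against 43.2% of 35116 windows. At least 3 stretches were found in 7 of the 32 members (21.9%), against 6.64% of genes. BNIP3L, NDRG1, SLC2A3 and VEGFA had no window in the table used. A gene was counted if any of its windows passed, so genes with more windows were counted more readily. The 32 members had 56 windows, and 27305 genes had 35116, and the shares of genes were not matched for this. The members are known hypoxia genes by choice, base composition was not matched, and a match of 5 letters is no measure of binding.

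Several members changed in 1 line or passed in part. SLC2A1, with the array values given above, fell by 0.67 (SE 0.10, adjusted p = 0.00169) in V71 and differed by -0.06 (adjusted p = 0.815) in PLKO. Its V71 call was lost without V71 NDF replicate 3, when the size fell under the fold limit (adjusted p = 0.0146). TPI1, the triose isomerase, fell by 0.59 (adjusted p = 0.00399) in V71, and in PLKO its -0.52 (adjusted p = 0.00825) was short of the fold limit. The V71 call of TPI1 was lost without V71 NDF replicate 3 (adjusted p = 0.0321) or V71 DF replicate 2 (adjusted p = 0.0341), and after median centring.

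PFKFB3, which makes the activator of phosphofructokinase, read 5.82 and 5.64 in PLKO NDF, 5.05 and 5.24 in PLKO DF, 5.63 and 5.61 in V71 NDF, and 5.18 and 5.0 in V71 DF. DF lay below NDF in both lines. PFKFB3 fell by 0.59 (adjusted p = 0.00573) in PLKO, a call lost without PLKO NDF replicate 2 (adjusted p = 0.0639) or PLKO DF replicate 1 (adjusted p = 0.0427). In V71 its difference of -0.53 (adjusted p = 0.00971) was short of the fold limit. DDIT4 (REDD1), a stress-induced inhibitor of mTORC1, read 5.41 and 5.35 in PLKO NDF, 4.48 and 4.82 in PLKO DF, 5.14 and 5.37 in V71 NDF, and 4.92 and 4.88 in V71 DF. The 2 PLKO DF arrays were the lowest. DDIT4 fell by 0.73 (SE 0.12, adjusted p = 0.00365) in PLKO, a call lost without PLKO DF replicate 1 (adjusted p = 0.0224), and differed by -0.36 (adjusted p = 0.096) in V71.

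NDRG1, a differentiation-linked and hypoxia-induced gene, was the only member called higher upon differentiation. It read 6.05 and 6.30 in PLKO NDF, 7.17 and 7.18 in PLKO DF, 6.33 and 6.59 in V71 NDF, and 7.13 and 6.92 in V71 DF. All DF arrays were above all NDF arrays. NDRG1 rose by 1.0 (SE 0.12, adjusted p = 0.000544) in PLKO, and in V71 its 0.56 (SE 0.12, adjusted p = 0.0148) was 1.48-fold and short of the fold limit.

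In the lower part of the pathway, ENO1, the main enolase, read 11.05 to 11.15 in the 4 NDF arrays and 10.53 to 10.60 in the 4 DF arrays, so the conditions did not overlap. Its difference of -0.50 (adjusted p = 0.00337) in PLKO and -0.52 (adjusted p = 0.00259) in V71 passed the adjusted p alone. LDHB differed by -0.46 (adjusted p = 0.0105) and -0.41 (adjusted p = 0.0181) and likewise passed the adjusted p alone. PKM, pyruvate kinase, whose row does not tell its splice forms apart, differed by -0.46 (adjusted p = 0.0137) in PLKO and by -0.27 (adjusted p = 0.122) in V71. ENO2, the neuronal enolase, differed by 0.15 (adjusted p = 0.482) and 0.21 (adjusted p = 0.288).

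GAPDH differed by -0.16 and -0.22 and PGK1 by -0.25 and -0.19 in PLKO and V71, and none of these passed the adjusted p. PFKP, which was apart between the lines, differed by 0.30 (adjusted p = 0.107) in PLKO and 0.02 (adjusted p = 0.957) in V71 upon differentiation. HIF1A differed by 0.10 (95% interval -0.10 to 0.31) and 0.12 (-0.09 to 0.32). BNIP3, BNIP3L, ANKRD37, P4HA2 and KDM3A differed by -0.21 to 0.28 in PLKO and by -0.18 to 0.17 in V71, and none passed the adjusted p. VEGFA differed by -0.01 (adjusted p = 0.964) in PLKO and by -0.58 (adjusted p = 0.00126) in V71, and P4HA1, a collagen prolyl hydroxylase, by -0.37 (adjusted p = 0.0878) and -0.52 (adjusted p = 0.0214), all under the fold limit.

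In PLKO, 8 of 36 members (22.2%) were called lower, against 4.16% of all genes, and 1 was called higher, against 2.88% of all genes. In V71, 8 of 36 (22.2%) were called lower, against 3.55% of all genes, and none higher, against 3.98%. At an unadjusted p under 0.05 by limma, 1 member was higher in V71, against 2891 of 18377 genes, and 16 were lower, against 2455. By the adjusted p alone, 12 members were lower in PLKO, against 7.77% of all genes, and 1 was higher, against 7.98%. In V71, 13 were lower, against 7.22% of all genes, and 1 was higher, against 9.29%. The median change of the members was -0.14 in PLKO and -0.19 in V71, beside 0.01 and 0.00 for all genes.

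The 2 lines share no array in this comparison, and they moved alike for most members, as the plot of the change in each line shows. In 33 of 36 members (91.7%) the sign was the same, as it was in 68.4% of all genes. Across the 36 members Pearson's r was 0.759 and Spearman's rho 0.881, and across all 18377 genes they were 0.78 and 0.621. Genes are not independent replicates, and these values describe the 2 lines only.

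**Figure D3:**
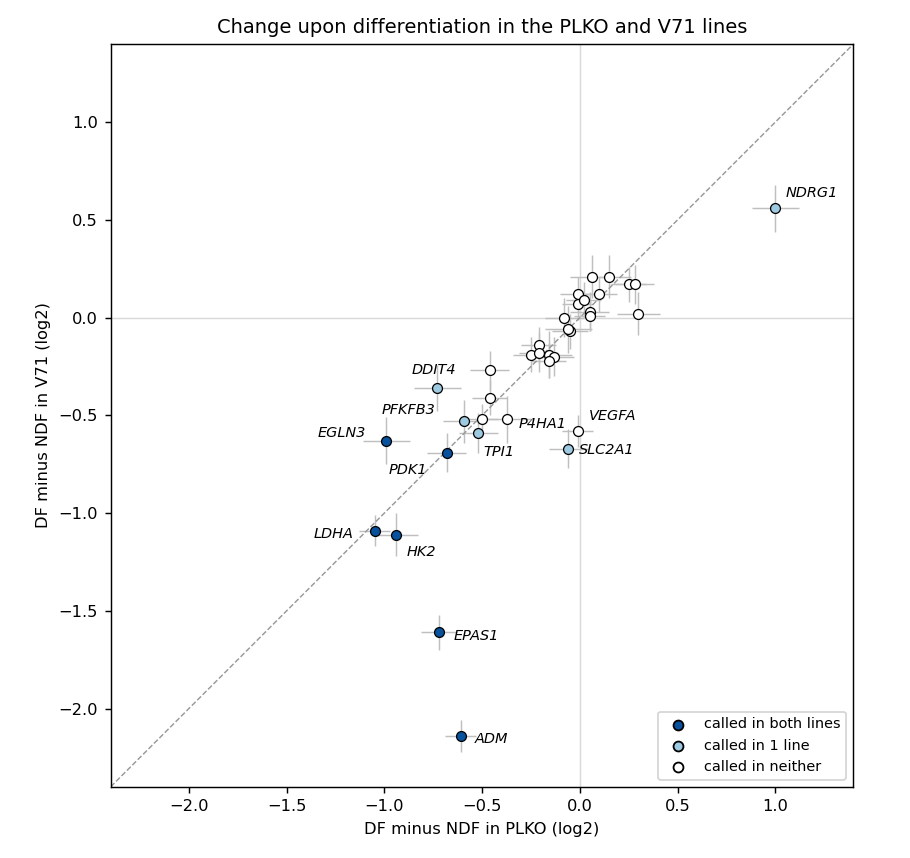
Change upon differentiation (DF minus NDF, log2) in PLKO (x axis) and in V71 (y axis) for the 36 members. Points are limma estimates, bars are 1 SE, colours give the number of lines in which a gene was called, and the dashed line marks equal change. LDHA, HK2 and PDK1 lie near the line of equal change, and ADM and EPAS1 lie below it.

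Genes of cell division moved with differentiation. Of 25 genes of cycling cells, 25 were called lower in PLKO, against 4.16% of all genes, and 24 in V71, against 3.55%. The mean level of the list was 7.71 to 7.73 in PLKO NDF, 5.88 to 6.01 in PLKO DF, 7.89 to 7.91 in V71 NDF and 6.54 to 6.59 in V71 DF. MKI67, a defining gene of cycling cells, read 8.14 to 8.51 in the NDF arrays, 6.03 and 6.22 in PLKO DF, and 6.98 and 6.95 in V71 DF. In DF 14 of the 25 (56%) were called higher in V71 than in PLKO, against 1.81% of all genes. Of the S-type markers, 6 of 32 (18.8%) were called lower in PLKO, against 4.16% of all genes. In V71 1 was called lower and 1 higher (3.12% each), against 3.55% and 3.98%. What part these shifts had in the fall of LDHA, HK2, PDK1 and the other members was not tested. Removal of serum and addition of retinoic acid and BDNF came together, so their effects cannot be told apart.

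Whether the response to differentiation itself differed between the lines was tested by the interaction. ADM and EPAS1 were called, and in both the fall was larger in V71. The interaction was -1.54 (SE 0.12, adjusted p = 0.000346) for ADM and -0.89 (SE 0.13, adjusted p = 0.0137) for EPAS1. The V71 cells started from the higher level in NDF for both genes, and ended at 5.22 and 5.22 against 5.37 and 5.29 for ADM. The ADM call held without any 1 array. The EPAS1 call was lost without PLKO NDF replicate 2 (adjusted p = 0.0886), PLKO NDF replicate 3 (0.064), PLKO DF replicate 1 (0.0582), V71 DF replicate 1 (0.0501) or V71 DF replicate 2 (0.0552).

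VEGFA (-0.57, SE 0.12, adjusted p = 0.0651) and SLC2A1 (-0.61, SE 0.14, adjusted p = 0.109) had the next largest interactions and did not pass. With a robust variance prior that followed the mean level, SLC2A1 was called as well. EGLN3 had 0.36 (adjusted p = 0.601) and HIF1A 0.01 (95% interval -0.28 to 0.31). Of the 36 members 2 were called lower, against 0.305% of all genes, and none higher, against 1.09%. At an unadjusted p under 0.05 by limma, no member was higher, against 1161 of 18377 genes, and 5 were lower, against 712. The median interaction was -0.02 in the members and 0.00 in all genes.

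**Figure D4:**
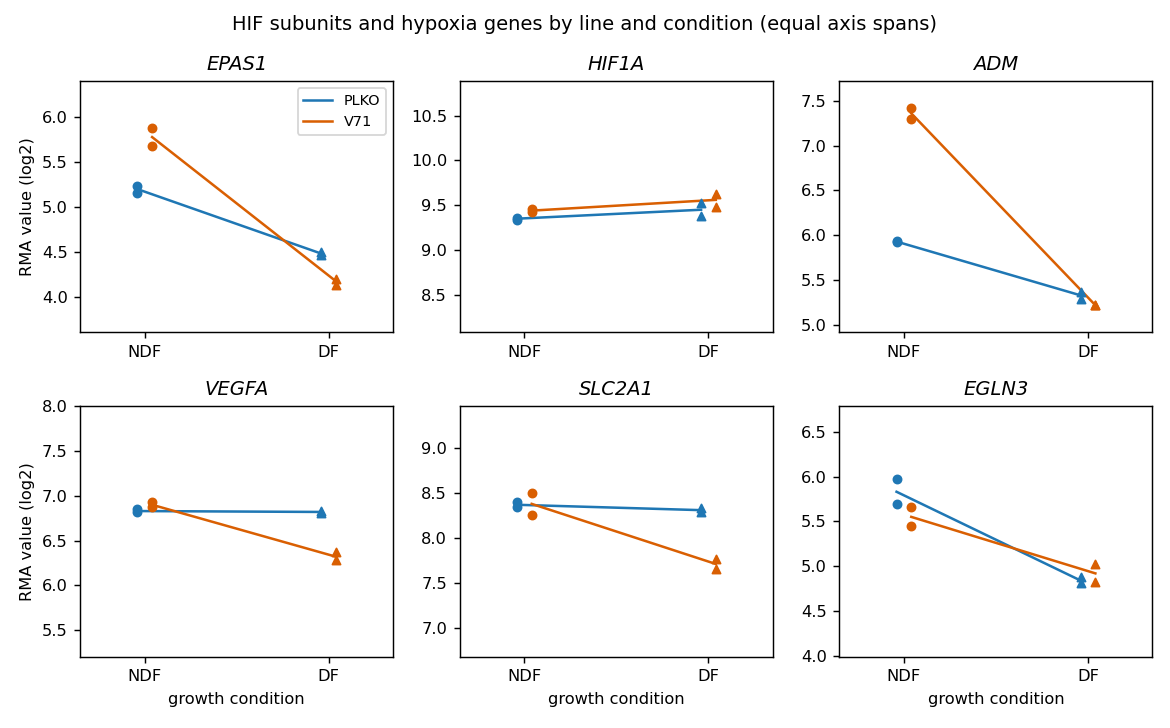
RMA values (log2, y axis) of 6 members by growth condition (x axis), with single arrays as points (circles NDF, triangles DF) and lines joining group means, PLKO in blue and V71 in orange. All panels span the same number of log2 units. The lines cross for EPAS1 and meet in DF for ADM, part in DF for VEGFA and SLC2A1, and stay close for HIF1A, which differs by at most 0.12 in any comparison of groups.

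The rest of the pathway was read from lists of other genes. Of 19 other regulators of HIF, 18 were analysed and none was called in any comparison. By limma 1, 3, 6, 4 and 0 of them had an unadjusted p under 0.05 for the line in NDF, the line in DF, differentiation in PLKO, differentiation in V71 and the interaction. Of all 18377 genes, 2765, 3576, 5152, 5346 and 1873 did in the same order. ARNT, the partner of the alpha subunits, differed by 0.13 and 0.08 between the lines in NDF and DF and by 0.24 (adjusted p = 0.181) and 0.20 (adjusted p = 0.296) upon differentiation in PLKO and V71. ARNT2, its neuronal relative, differed by 0.09, 0.06, 0.00 and -0.02 in the same order. VHL, which marks the alpha subunits for degradation, differed by 0.19, 0.14, 0.08 and 0.04. HIF1AN, the asparagine hydroxylase that blocks their coactivator contact, differed by -0.05, -0.02, 0.26 (adjusted p = 0.117) and 0.30 (adjusted p = 0.0751). EGLN2 had no row of its own.

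Of 46 other glycolysis and pyruvate genes, 43 were analysed. None was called between the lines in NDF, where 4 had an unadjusted p under 0.05 by limma, against 2765 of 18377 genes. In DF 1 was called higher in V71 (2.33%, against 1.81% of all genes). That gene, FBP1, the gluconeogenic enzyme that reverses the phosphofructokinase step, was 0.72 (SE 0.10, adjusted p = 0.00288) higher in V71. FBP1 rose by 1.14 (SE 0.10, adjusted p = 6.52e-05) upon differentiation in V71 and differed by 0.25 (adjusted p = 0.15) in PLKO. Its interaction of 0.88 (adjusted p = 0.0185) was lost when any of 7 arrays was left out (adjusted p of 0.0565 to 0.11), the exception being V71 NDF replicate 3.

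Upon differentiation 2 of the 43 (4.65%) were called higher in PLKO, against 2.88% of all genes, and 3 (6.98%) in V71, against 3.98%. PDK2, a further pyruvate dehydrogenase kinase, rose by 0.63 (adjusted p = 0.00146) in PLKO and 0.61 (adjusted p = 0.00177) in V71. The PDK2 calls were lost without PLKO NDF replicate 3 and without V71 NDF replicate 2 in turn. PFKFB2, a relative of PFKFB3, rose by 0.65 (adjusted p = 0.00337) in PLKO, lost without PLKO DF replicate 2, and rose by 0.60 (adjusted p = 0.00519) in V71. PC, which makes oxaloacetate from pyruvate, fell by 0.79 (adjusted p = 0.00189) in V71 and differed by -0.54 (adjusted p = 0.0151, short of the fold limit) in PLKO. So within the kinases of pyruvate dehydrogenase PDK1 fell and PDK2 rose upon differentiation in both lines.

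Of 55 other hypoxia-induced genes, 53 were analysed, and calls went in both directions. Between the lines 2 were higher (3.77%) and 4 lower (7.55%) in V71 in NDF, against 0.615% and 1.54% of all genes. In DF 3 were higher (5.66%) and 2 lower (3.77%), against 1.81% and 1.26%. VLDLR, a lipoprotein receptor, was higher in V71 by 1.27 (adjusted p = 4.14e-05) in NDF and 0.88 (adjusted p = 0.000381) in DF. PLIN2, a coat protein of lipid droplets, was higher by 0.69 (adjusted p = 0.00342) in NDF and 0.79 (adjusted p = 0.00124) in DF. KDM4C, a histone demethylase, was lower in V71 by 0.95 (log2 difference -0.95, adjusted p = 0.00035) in NDF and by 0.68 (-0.68, adjusted p = 0.00242) in DF. LOX, which cross-links collagen, was 1.04 lower (-1.04, adjusted p = 0.00331) in V71 in NDF.

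Upon differentiation 2 of the 53 were called higher (3.77%) and 3 lower (5.66%) in PLKO, against 2.88% and 4.16% of all genes. In V71 1 was called higher (1.89%) and 4 lower (7.55%), against 3.98% and 3.55%. CXCR4, the chemokine receptor of migrating neural crest cells, fell by 1.89 (adjusted p = 3.3e-06) in PLKO and fell by 0.99 (adjusted p = 0.000189) in V71. Its interaction was 0.89 (adjusted p = 0.0222), the sign opposite to that of ADM and EPAS1, and was lost without PLKO NDF replicate 2 (adjusted p = 0.0837), PLKO NDF replicate 3 (0.13), V71 NDF replicate 3 (0.0842), PLKO DF replicate 2 (0.0657) or V71 DF replicate 1 (0.0947). RORA, a nuclear receptor, rose by 0.91 (adjusted p = 0.00514) in PLKO, lost without PLKO NDF replicate 3 (adjusted p = 0.0589), and rose by 1.42 (adjusted p = 0.00037) in V71. HILPDA, a lipid droplet protein, fell by 1.06 (adjusted p = 0.000189) in V71 and differed by -0.49 (adjusted p = 0.0162) in PLKO. LOX fell by 1.20 (adjusted p = 0.00033) in PLKO and differed by -0.34 (adjusted p = 0.157) in V71. The median change of this list was 0.02 in PLKO and -0.04 in V71.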

How the data were processed

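RNA of SHSY5Y cultures was hybridised to 8 Affymetrix arrays (Human Gene 1.0 ST), 2 in each of 4 groups. The deposited values are log2 expression made by the authors with RMA in Partek Genomics Suite 6.5, a background correction and quantile normalization that removes shifts common to a whole array. Of 28869 rows, 19310 carried 1 gene symbol in the platform annotation, 1752 several and 7807 none. For a gene with several rows the row with the highest mean was taken. R 4.3.3 and limma 3.58.1 fitted 4 group means to all rows with moderated variances (4 residual and 5.43 prior degrees of freedom). The study's methods give an analysis of variance with the same fold limit. Named were all analysed members and, of each other list, up to 3 called genes with the largest difference per comparison, besides ARNT, ARNT2, VHL, EGLN2 and HIF1AN. The members and lists were chosen with earlier results of these data known. On simulated data for the NDF line comparison, run on 28869 rows, 30 of 50 changes of 1.5-fold and 50 of 50 of 2-fold were recovered, with 6 false calls. The promoter sequences are RefSeq's. Alternatives to the variance model, scaling, filter and thresholds, and each array left out, were run. The gene targeted by the shRNA is not reported here.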

Additional observations from a re-analysis of the deposited data

Results flagged for a closer look

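The change upon differentiation differed between the lines for 2 members by the interaction test of limma. For ADM the change in V71 minus that in PLKO was -1.54, with an adjusted p of 0.000346, and both V71 NDF arrays (7.30 and 7.42) lay above the other 6. For EPAS1 it was -0.89, with an adjusted p of 0.0137, and leaving out any of 5 arrays lost the call (adjusted p of 0.0501 to 0.0886). With 2 arrays a group, no group was large enough to look for a single array apart from the rest.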

How the results depend on the processing

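Of 26 called member results, 9 kept their call under every one of up to 20 alternatives, 17 lost it under at least 1, the threshold changes included, and 0 reversed. The 9 were ADM between the lines in NDF, HK2 and PFKP between the lines in DF, LDHA and NDRG1 upon differentiation in PLKO, and HK2, LDHA, EPAS1 and ADM upon differentiation in V71. Without variance moderation the member calls went from 4 to 1 for the line in NDF and from 2 to 0 for the interaction, since 4 degrees of freedom then carry each test. For that interaction 4 of 36 members had an unadjusted p under 0.05, against 1767 of 18377 genes. With a robust variance prior that followed the mean level, the member calls for the interaction went from 2 to 3, SLC2A1 being gained. Without a fold limit they numbered 6 for the line in DF and 14 for differentiation in V71. At a fold of at least 2 they numbered 2 for differentiation in PLKO, 4 in V71 and 1 for the interaction. Leaving out each array in turn gave 3 to 4 calls for the line in NDF, 2 to 3 in DF, 7 to 9 for differentiation in PLKO, 7 to 10 in V71 and 1 to 2 for the interaction.

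With a replicate block the counts were 4 for the line in NDF, 3 in DF and 2 for the interaction, as without it. The arrays of the same number in NDF deviated with a correlation of -0.176 and those in DF with 0.188. With 2 arrays a group, these values cannot show whether the numbers pair the arrays. A crossed pairing, chosen after seeing the data, gave 4, 3 and 2. No paired analysis was possible for differentiation because DF and NDF cultures share 1 replicate number. The 2 arrays a group limit the precision, and array signal near the lower quartile, as for SLC2A3, cannot show small changes.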

Other observations

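Sugar phosphates can also leave glycolysis for the pentose phosphate pathway and for glycogen. Of 13 pentose phosphate genes 12 were analysed, and none was called between the lines in either condition. Upon differentiation 3 (25%) were called lower in PLKO, against 4.16% of all genes, and 2 (16.7%) in V71, against 3.55%. None was called higher in either line. DERA, which cleaves deoxyribose phosphate, fell by 1.21 (adjusted p = 0.000116) in PLKO and fell by 0.76 (adjusted p = 0.00221) in V71. PRPS2, which makes the ribose precursor of nucleotides, fell by 0.67 (adjusted p = 0.00144) and fell by 0.70 (adjusted p = 0.0011). PRPS1, its relative, fell by 0.60 (adjusted p = 0.00447) in PLKO, a call lost without PLKO DF replicate 1 (adjusted p = 0.035), and differed by -0.41 (adjusted p = 0.0285) in V71. The median change of the list was 0.01 in PLKO and -0.17 in V71.

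Of 21 glycogen genes 19 were analysed. PPP1R3B, which directs a phosphatase to glycogen and favours its synthesis, rose by 0.89 (adjusted p = 0.00118) in PLKO and rose by 1.39 (adjusted p = 8.06e-05) in V71. PPP1R3C, of the same family, fell by 0.65 (adjusted p = 0.00258) in V71, a call lost without V71 DF replicate 2 (adjusted p = 0.0245), and differed by -0.31 (adjusted p = 0.0855) in PLKO. PGM2, a phosphopentomutase, fell by 0.93 (adjusted p = 0.000427) in PLKO and differed by -0.37 (adjusted p = 0.0566) in V71. In DF PGM2 was higher in V71 by 0.64 (adjusted p = 0.00989), a call lost without PLKO DF replicate 1 (adjusted p = 0.0681), V71 DF replicate 1 (0.0508) or V71 DF replicate 2 (0.058). None of the 19 was called between the lines in NDF.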
